A study of Caenorhabditis elegans with 6 samples.

Results

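The blister, roller and body-shape collagens of the nematode Caenorhabditis elegans are a set of cuticle collagens that are named after what their mutants look like. The set held bli-1, bli-2, bli-6, sqt-1, sqt-2, sqt-3, rol-6, dpy-5, dpy-13 and dpy-17. Membership was decided by gene symbol, with no threshold on a measured value, but the set was proposed with earlier results of these data known. All 10 were on the array, each with 1 probe, among 18880 genes. The probes carried the sequence names C09G5.6 for bli-1, F59E12.12 for bli-2, Y73B6BL.34 for bli-6, B0491.2 for sqt-1, C01B12.1 for sqt-2, F23H12.4 for sqt-3, T01B7.7 for rol-6, F27C1.8 for dpy-5, F30B5.1 for dpy-13 and F54D8.1 for dpy-17.

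Their transcript levels were compared between worms raised on chlorpyrifos (CPF), an organophosphorus insecticide that inhibits acetylcholinesterase, and control worms. Both groups were wild type N2 worms of 72 hours, raised from the egg at 16 °C on plates seeded with the Escherichia coli strain OP50, and are labelled as L3/L4 larvae. Plates of the CPF group held CPF in acetone, and those of the control group held acetone only. The labelled concentration is 0.5 mg/ml, but the study's methods state it per litre, so its unit was not settled. Each sample pooled the worms of several dishes. Each of 6 arrays with 2 colours carried 1 CPF and 1 control sample. CPF was labelled with Cy5 on 3 arrays (CPF Cy5 replicates 1 to 3) and with Cy3 on the other 3 (CPF Cy3 replicates 1 to 3). The study describes the replicates as independent and biological. The sources used here do not state whether each array had its own control extract, and the share of the controls' own spread in the p-values is unknown.

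The worm cuticle is secreted by the epidermis and is built anew at every moult. It consists mostly of short collagens whose chains are hydroxylated, trimmed by proteases and cross-linked outside the cell. In the adult cuticle an inner and an outer layer are separated by a fluid-filled space that is spanned by columns called struts. BLI-1, BLI-2 and BLI-6 belong to the struts, and worms that lack strut collagens form fluid blisters on the surface. The other members shape the body. Mutants in sqt and rol genes have a helically twisted body and roll when they crawl, and dpy mutants are short and fat (dumpy). Collagen genes resemble each other in sequence, and how far each probe also bound transcripts of related collagens was not tested.

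Per sample, between 34.98% and 61.56% of probes were above background and between 6 and 144 were saturated. CPF Cy3 replicates 2 and 3 stood apart from the rest. Over all genes, the log2 ratios of these arrays correlated with those of the other 4 between -0.09 and 0.13, whereas those 4 correlated among themselves between 0.32 and 0.58. CPF Cy3 replicates 2 and 3 correlated with each other at 0.31. Both arrays belonged to the second of 2 scan days, together with CPF Cy5 replicate 3. Values of members and lists that move with these arrays are given below with and without them. Leaving both out keeps CPF Cy3 replicate 1 as a lone array in its dye orientation. For that fit only the fitted values are therefore given.

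The log2 fold change, CPF over control, was fitted with limma across all genes and is given with its standard error (n = 6 arrays). A gene was called changed at an adjusted p below 0.05 (Benjamini-Hochberg over 18880 genes). Of all genes 195 (1.03%) were called lower and 64 (0.339%) were called higher. Of the 10 members 1 was called lower, the strut collagen bli-2, and 0 were called higher. At an unadjusted p below 0.05 there were 4 members (bli-1, bli-2, bli-6 and dpy-17), beside 1985 of all genes. By the rank product, the test of the study's methods, the 3 strut collagens were lower and 0 members were higher, where 2.04% of all genes were lower. The median log2 fold change of the members was -0.06, and that of all genes was 0.01. The 3 strut collagens had the lowest fitted values of the set, between -1.11 and -0.71, and the other 7 lay between -0.36 and 0.17.

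The ratio was below 0 on all 6 arrays for bli-1, bli-2 and dpy-17, and for 4.28% of all genes. No member was above 0 on all 6. In whole worms, fewer epidermal cells and less RNA per cell cannot be told apart.

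**Figure D1:**
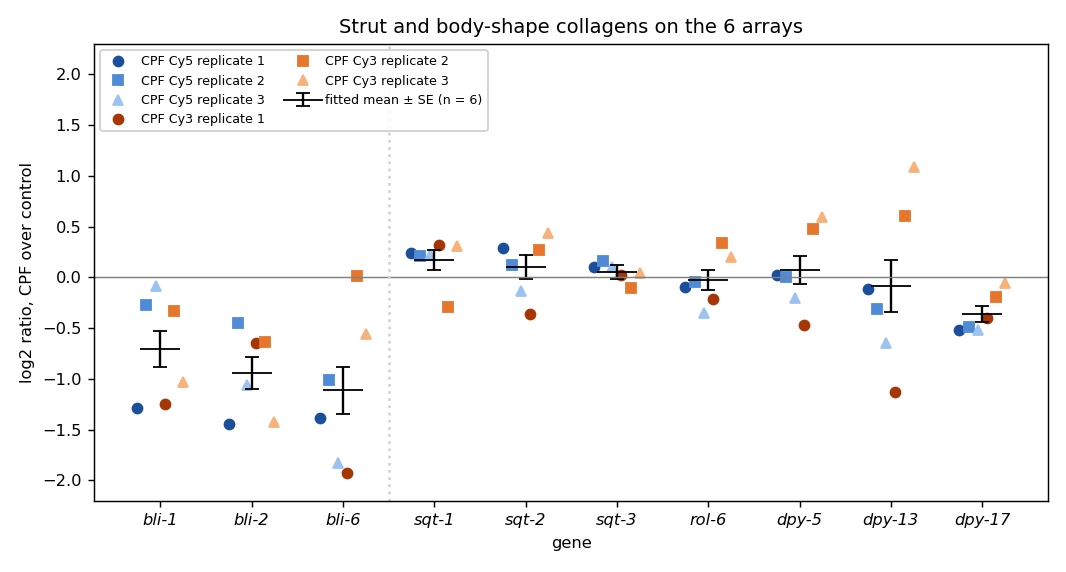
Log2 ratio of CPF over control (vertical axis) for the 10 collagens (horizontal axis), with 1 point per array, blue for arrays with CPF in Cy5 and orange for arrays with CPF in Cy3. The black cross is the fitted mean ± SE (n = 6). The strut collagens bli-1, bli-2 and bli-6 stand left of the dotted line, with fitted means between -1.11 and -0.71.

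Among the struts, bli-2 showed the tightest fall. In control worms the normalised log2 signal of bli-2 was 11.71 at the lowest, 12.52 at the median and 13.37 at the highest. In CPF treated worms it was 10.65, 11.54 and 12.73. The ranges of both groups overlapped, but on every array the CPF sample was the lower one. The log2 ratios of bli-2 were -1.44, -0.45 and -1.06 on CPF Cy5 replicates 1 to 3 and -0.64, -0.64 and -1.42 on CPF Cy3 replicates 1 to 3. The highest of these 6 ratios was that of CPF Cy5 replicate 2, and even there the control was 1.36-fold higher. The fitted log2 fold change was -0.94 ± 0.15 (limma, adjusted p = 0.0348), which is a level 1.92-fold higher in control worms (95% interval of the log2 fold change -1.30 to -0.59). The mean of the arrays with CPF in Cy5 was -0.98 ± 0.50 (SD, n = 3) and that of the arrays with CPF in Cy3 was -0.90 ± 0.45 (SD, n = 3), a difference between dyes that was smaller than either SD.

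The call of bli-2 rested on all arrays together. With one of the CPF Cy5 arrays left out, its adjusted p in limma was 0.138 (replicate 1), 0.0738 (replicate 2) or 0.107 (replicate 3). With one of the CPF Cy3 arrays left out it was 0.032 (replicate 1), 0.0535 (replicate 2) or 0.12 (replicate 3). The fitted value itself moved little and lay between -1.07 and -0.81 when any one array was left out. Within scan day 1 it was -0.79, and within scan day 2 it was -1.04. Day 1 held CPF Cy5 replicates 1 and 2 and CPF Cy3 replicate 1, and day 2 held the other arrays. Each day thus had a lone array in one of the dye orientations, so for single days only the fitted values of members are given. With both CPF Cy3 replicates 2 and 3 left out, the value of bli-2 was -0.81. The call was also lost without background correction (-0.92, adjusted p = 0.146).

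The fitted change of bli-6 was the greatest in size among the members, but its arrays also spread more. The normalised log2 signal of bli-6 was 10.23, 12.29 and 12.81 in control worms (lowest, median and highest of 6 samples). In CPF treated worms it was 10.24, 10.62 and 11.86. The lowest control sample, that of CPF Cy3 replicate 2, lay just below the lowest CPF sample, while the other 5 control samples lay at or above 11.89. The log2 ratios of bli-6 were -1.39, -1.01 and -1.83 on CPF Cy5 replicates 1 to 3 and -1.92, 0.02 and -0.56 on CPF Cy3 replicates 1 to 3. CPF was thus lower on 5 arrays, and level with the control on CPF Cy3 replicate 2. On that array the raw brightness of the control spot was 721, against 3946 to 7872 on the others, with a local background of 161. The fitted log2 fold change was -1.11 ± 0.23 (adjusted p = 0.0743), 2.16-fold higher in control worms (95% interval 1.49 to 3.13), and it did not pass the threshold.

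Without CPF Cy3 replicate 2 the value of bli-6 was -1.32 (adjusted p = 0.0398), and without CPF Cy3 replicates 2 and 3 it was -1.66. Without CPF Cy3 replicate 1 it was -0.84 (adjusted p = 0.0326). It did not pass with any other single array left out, with an adjusted p of 0.288, 0.198 or 0.221 when a CPF Cy5 array was missing (replicates 1 to 3) and of 0.187 when CPF Cy3 replicate 3 was. Nor did bli-6 pass without background correction (adjusted p = 0.214). Within single scan days, each with a lone array in one of the dye orientations, the value of bli-6 was -1.56 on day 1 and -1.05 on day 2. Its percentage of false positives by the rank product was 0.000246. With the replicate number as a block, the adjusted p of bli-6 was 0.0257 and that of bli-1 was 0.0345, so that all 3 strut collagens then passed. More genes passed in general with this block, 292 of 18880 being called lower, against 195 in the fit reported here. The replicate numbers were not taken to pair the arrays.

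The remaining strut collagen, bli-1, was lower on every array by very different amounts. Its normalised log2 signal was 9.45, 11.68 and 12.33 in control worms and 9.37, 10.76 and 11.99 in CPF treated worms (lowest, median and highest). The log2 ratios of bli-1 were -1.29, -0.27 and -0.08 on CPF Cy5 replicates 1 to 3 and -1.24, -0.33 and -1.03 on CPF Cy3 replicates 1 to 3. They formed a set of 3 arrays beyond -1 and a set of 3 arrays between -0.33 and -0.08. The smallest ratio came from CPF Cy5 replicate 3, where both samples were also dimmest, with a raw brightness of 573 in the control and 922 in CPF. The fitted log2 fold change was -0.71 ± 0.18 (adjusted p = 0.139), 1.63-fold higher in control worms (95% interval 1.23 to 2.17), and did not pass. The percentage of false positives by the rank product was 0.0147. By scan day the value of bli-1 was -1.01 on day 1 and -0.38 on day 2, and it was -0.90 when CPF Cy3 replicates 2 and 3 were left out.

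The strut collagens did not share one order over the arrays. For bli-1 and bli-2, CPF Cy5 replicate 1 and CPF Cy3 replicate 3 were among the arrays with the largest fall. For bli-6 the largest falls were on CPF Cy3 replicate 1 and CPF Cy5 replicate 3, on which bli-1 had its second largest and its smallest fall. As a measure of likeness, the root mean square difference of the 6 log2 ratios was taken for bli-2 and for bli-6. Each was set against 5845 other genes that were above background in both conditions on all arrays. This measure takes in the size of the ratios as well as their order over the arrays. By this measure bli-1 was at rank 22 for bli-2 (0.52), and bli-2 and bli-1 were at ranks 56 and 91 for bli-6 (0.79 and 0.86).

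**Figure D2:**
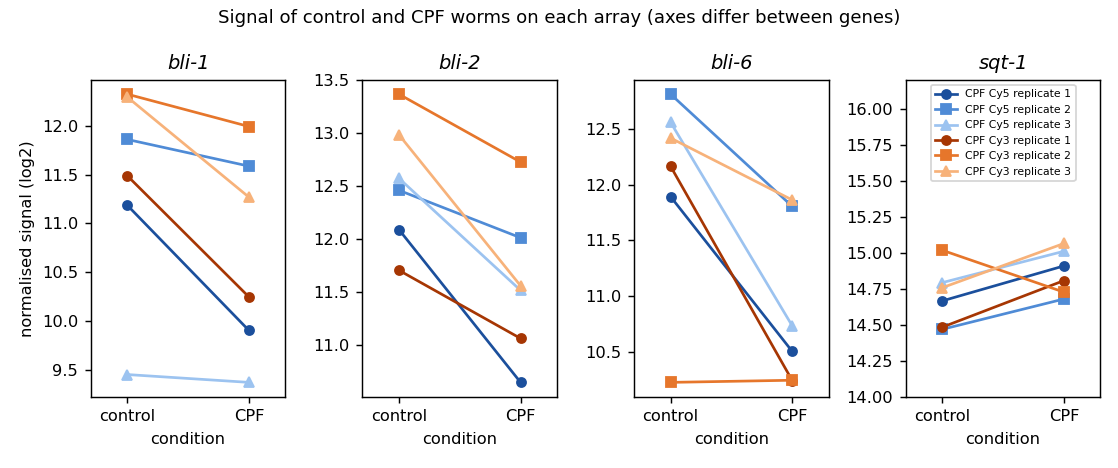
Normalised log2 signal (vertical axes, which differ between genes) of the control and the CPF sample (horizontal axis) on each array for bli-1, bli-2, bli-6 and sqt-1. Each line joins the samples of 1 array. All 6 lines fall for bli-1 and bli-2 and 5 fall for bli-6, while 5 of 6 rise for sqt-1.

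The genes closest to bli-2 were the collagen gene col-110 (difference 0.15), sta-2 (0.22), which encodes a STAT factor that acts in the epidermis, and ZK945.7 (0.26). All 3 were called lower. Their fitted changes were -0.98 ± 0.13 for col-110 (adjusted p = 0.0172), -1.07 ± 0.14 for sta-2 (adjusted p = 0.0172) and -0.84 ± 0.09 for ZK945.7 (adjusted p = 0.0105). On CPF Cy5 replicate 2, the weakest array of bli-2, the ratio was -0.75 for col-110 and -0.74 for sta-2. Closest to bli-6 were the collagen gene col-138 (0.27), D1086.6 (0.44) and Y46G5A.11 (0.47). Like bli-6, they were weakest on CPF Cy3 replicate 2, where their ratios were -0.36, -0.09 and 0.06. Their log2 fold changes were -1.24 ± 0.24 for col-138 (adjusted p = 0.0563), -1.12 ± 0.19 for D1086.6 (adjusted p = 0.0384) and -0.82 ± 0.16 for Y46G5A.11 (adjusted p = 0.0538). These genes were picked for their likeness, so their direction is no separate evidence.

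The squat collagens sqt-1, sqt-2 and sqt-3 did not change by the test. SQT-1 acts together with ROL-6, and different alleles of sqt-1 give rolling, dumpy or long worms. Its normalised log2 signal was 14.47, 14.71 and 15.02 in control worms and 14.68, 14.86 and 15.06 in CPF treated worms (lowest, median and highest). The log2 ratios of sqt-1 were 0.24, 0.21 and 0.22 on CPF Cy5 replicates 1 to 3 and 0.32, -0.29 and 0.31 on CPF Cy3 replicates 1 to 3. Ratios on 5 arrays lay within a narrow band above 0, and CPF Cy3 replicate 2 lay below 0. The fitted value was 0.17 ± 0.10 (adjusted p = 0.648, 95% interval -0.06 to 0.40), and without CPF Cy3 replicate 2 the adjusted p was 0.235.

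The ratios of sqt-2, another gene whose mutants roll, ran from -0.36 on CPF Cy3 replicate 1 to 0.44 on CPF Cy3 replicate 3. Its fitted value was 0.10 ± 0.12 (adjusted p = 0.853, 95% interval -0.17 to 0.38), and -0.13 when CPF Cy3 replicates 2 and 3 were left out. SQT-3, which worms need to survive and which is trimmed by the protease DPY-31, had ratios from -0.11 to 0.17, though its CPF spot was saturated on 3 of the 6 arrays. The fitted value of sqt-3 was 0.06 ± 0.07 (adjusted p = 0.874), with a 95% interval from -0.11 to 0.22. A change of the size fitted for bli-1 lay outside the interval of sqt-2, which had no saturated spot.

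The gene rol-6, whose dominant roller allele is widely used as a marker in transgenic worms, had log2 ratios of -0.09, -0.05 and -0.35 on CPF Cy5 replicates 1 to 3 and -0.22, 0.34 and 0.20 on CPF Cy3 replicates 1 to 3. The sign of rol-6 was thus negative on 4 arrays and positive on CPF Cy3 replicates 2 and 3. The fitted value was -0.03 ± 0.10 (adjusted p = 0.967, 95% interval -0.25 to 0.20), and -0.19 when CPF Cy3 replicates 2 and 3 were left out. Spots of CPF samples were saturated on 4 arrays for rol-6, on 3 for sqt-3 and on 1 each for sqt-1 and dpy-5, and a saturated spot gives only a lower limit of brightness. Without these spots the value was 0.06 for sqt-3, over 3 arrays. It was 0.12 for sqt-1 and -0.02 for dpy-5, both over 5 arrays, and neither of these passed the test. For rol-6 it was 0.06 over 2 arrays, both with CPF in Cy3, so the dye effect could not be removed there. No control spot of a member was saturated.

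Of the dumpy collagens, dpy-13 varied most between arrays of all 10 members. Its log2 ratios were -0.11, -0.31 and -0.65 on CPF Cy5 replicates 1 to 3 and -1.13, 0.61 and 1.09 on CPF Cy3 replicates 1 to 3. CPF was lower by 2.19-fold on CPF Cy3 replicate 1 and higher by 2.13-fold on CPF Cy3 replicate 3. The raw brightness of the CPF spot of dpy-13 was 4105 on the former and 32827 on the latter, while the control spot had 14611 and 13286. The fitted value was -0.08 ± 0.26 (adjusted p = 0.958, 95% interval -0.67 to 0.51). A change of the size fitted for bli-1 lay just outside this interval. The interval of bli-1 itself (-1.12 to -0.30) overlapped it, so such a change of dpy-13 is not excluded. Within scan day 1 the value was -0.67, and within day 2 it was 0.10. Without CPF Cy3 replicates 2 and 3 it was -0.74. The size and the direction of the dpy-13 value thus depended on which arrays were used.

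The dumpy collagen dpy-5 had ratios from -0.47 on CPF Cy3 replicate 1 to 0.59 on CPF Cy3 replicate 3. Its fitted value was 0.07 ± 0.14 (adjusted p = 0.927, 95% interval -0.25 to 0.39), and -0.26 when CPF Cy3 replicates 2 and 3 were left out. Of the members, sqt-2, rol-6, dpy-5 and dpy-13, shared a pattern of signs, below 0 on CPF Cy5 replicate 3 and CPF Cy3 replicate 1 and above 0 on CPF Cy3 replicates 2 and 3. This pattern was noticed after the values were seen, so it is given as a description. It was found in 8.10% of all genes and in 11.2% of the 5846 genes above background in both conditions on all arrays. Marker lists of other tissues differed in this respect. On CPF Cy5 replicate 3 and CPF Cy3 replicates 1, 2 and 3, in this order, the median log2 ratio of 5 germline genes was -0.18, -0.65, 0.28 and 0.49, which is the same pattern. That of 5 body wall muscle genes was 0.10, -0.40, 0.39 and 0.78, which departs from it on the first array. The medians of 5 intestine genes (-0.06, -0.44, -0.06 and -0.01) stayed below 0, and those of 5 neuronal genes (0.16, 0.33, -0.03 and -0.15) had the opposite signs. Their part in the result was not tested.

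The dumpy collagen dpy-17, whose product is processed together with SQT-3, was at the edge of detection. Its spots were above background in 3 of 6 control samples and in 2 of 6 CPF samples, with a raw brightness of 167 to 410 in the control and 174 to 267 in CPF. The log2 ratios of dpy-17 were -0.52, -0.49 and -0.52 on CPF Cy5 replicates 1 to 3 and -0.40, -0.20 and -0.05 on CPF Cy3 replicates 1 to 3. The fitted value was -0.36 ± 0.08 (adjusted p = 0.0781). It was -0.18 without background correction (adjusted p = 0.202) and -0.71 with plain subtraction (adjusted p = 0.176), so the size of this ratio depended on how the background was treated. Without CPF Cy3 replicates 2 and 3 the value of dpy-17 was -0.45.

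Other collagens with known mutants were set beside the members. The 6 annular furrow collagens, dpy-2, dpy-3, dpy-7, dpy-8, dpy-9 and dpy-10, form the circular grooves of the cuticle. Of these 0 were called in either direction, and all 6 had values above 0, between 0.16 and 0.35, with a median of 0.29. The smallest adjusted p was that of dpy-10, at 0.28 ± 0.08 (adjusted p = 0.216). Among 5 further body-shape collagens (lon-3, dpy-4, dpy-14, rol-1 and rol-8) rol-1 was called lower and 0 were called higher, and the median was -0.09. Without CPF Cy3 replicates 2 and 3, the value of dpy-4 was -0.58, against -0.02 on all arrays.

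The ratios of rol-1, whose mutants roll, were -1.78, -1.08 and -0.97 on CPF Cy5 replicates 1 to 3 and -1.89, -0.88 and -0.97 on CPF Cy3 replicates 1 to 3. All 6 were at or below -0.88, and the fitted value was -1.26 ± 0.16 (adjusted p = 0.0159). This adjusted p rose to 0.061 and 0.087 with CPF Cy5 replicate 1 or 2 left out, and to 0.0719 with CPF Cy3 replicate 3 left out. The call of rol-1 was also lost without background correction (adjusted p = 0.0975), with plain subtraction (adjusted p = 0.0949) and with the authors' values (adjusted p = 0.0976). Another roller collagen, rol-8, was measured at -0.19 ± 0.11 (adjusted p = 0.657). Of the roller genes rol-1, rol-6 and rol-8, rol-1 alone was called.

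The adult cuticle collagen col-19, a standard reporter of the adult epidermis, was also lower. It was above background in all 6 control samples and in 1 CPF sample. The log2 ratios of col-19 were -1.78, -1.85 and -2.12 on CPF Cy5 replicates 1 to 3 and -1.94, -0.20 and -1.59 on CPF Cy3 replicates 1 to 3, with CPF Cy3 replicate 2 far from the rest. The fitted value was -1.58 ± 0.20 (adjusted p = 0.0168). Since 5 of 6 CPF samples were not above background, its size depended on the treatment of background, with -1.11 without correction (adjusted p = 0.119) and -2.15 with plain subtraction (adjusted p = 0.0949). The call of col-19 was lost when any array with CPF in Cy5 was left out (adjusted p between 0.0642 and 0.0952) or when CPF Cy3 replicate 3 was (adjusted p = 0.0875). The other adult collagens on the list, col-7 and col-62, were not analysed here.

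**Figure D3:**
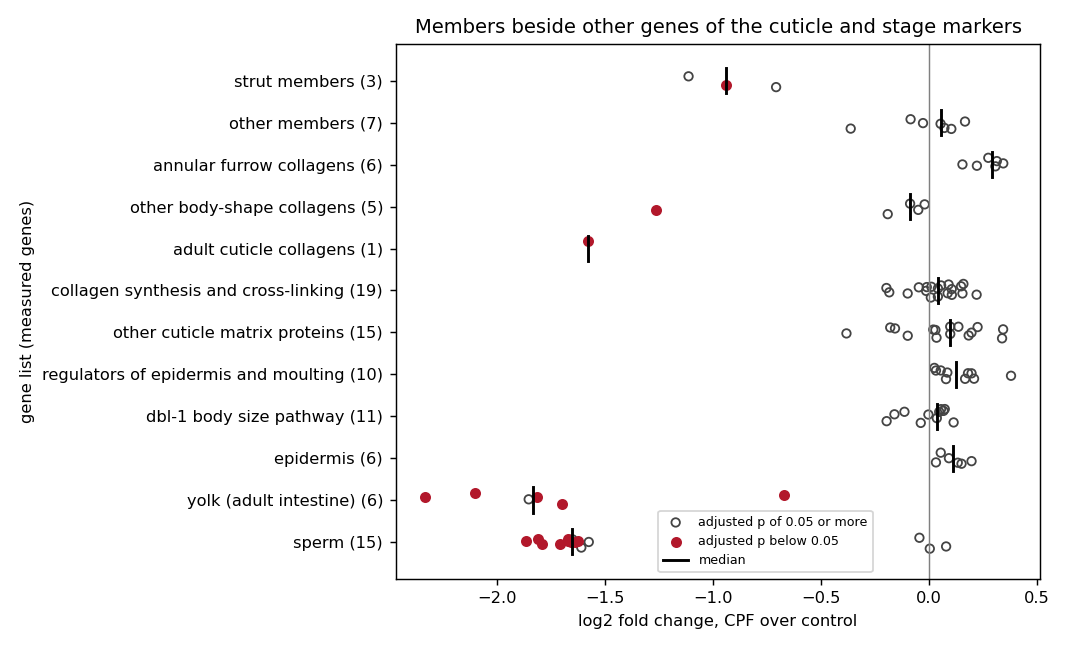
Fitted log2 fold change, CPF over control (horizontal axis), of the members and of other cuticle genes and stage markers (vertical axis, number of measured genes in brackets). Each point is a gene, filled where its adjusted p was below 0.05, and the black bar is the list's median. The strut collagens, rol-1, col-19 and most yolk and sperm genes lie left of 0, and the annular furrow collagens lie right of it.

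Genes that make and process collagen were not called in either direction. Of 19 enzymes and partners of collagen synthesis, trimming and cross-linking, among them the prolyl hydroxylase dpy-18, the protease dpy-31 and the dual oxidase bli-3, 0 were called and the median was 0.04. The smallest adjusted p was that of the protease inhibitor mlt-11, at 0.22 ± 0.09 (adjusted p = 0.453). Of 11 measured genes of the dbl-1 pathway, a BMP-like signal that sets body size, 0 were called and the median was 0.04. The lowest adjusted p there was that of its receptor daf-4 (-0.20 ± 0.12, adjusted p = 0.662).

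The same held for the regulators of the epidermis and of moulting. None of the 10 was called, all 10 had values above 0, and the median was 0.13. Only 2 of them were above background on all arrays in both conditions, and 2 were above background in no sample. The nuclear receptor nhr-25, which the worm needs to moult, had the smallest adjusted p (0.38 ± 0.11, adjusted p = 0.189). Of 15 other matrix proteins of the cuticle 0 were called, with a median of 0.10. The smallest adjusted p was that of the cuticlin gene cut-4 (-0.38 ± 0.08, adjusted p = 0.0822). The value of the matrix gene let-653 was 0.59 when CPF Cy3 replicates 2 and 3 were left out, against 0.20 on all arrays. On all arrays, in all these lists the share called was 0, where 1.03% of all genes were called lower and 0.339% higher.

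In the fit to all arrays no epidermal marker had a value below 0. Some of these markers, nhr-23 among them, were also among the regulators above, so these lists are not separate observations. Only 3 of the 6 markers were above background on all arrays in both conditions. In no sample was 1 of them above background, so a fall of that gene could not be seen. The 6 markers had values between 0.03 and 0.20 with a median of 0.11, 0 were called, and the smallest adjusted p was 0.552 (nhr-23). Markers of later development were lower. Of 6 yolk protein genes, which the intestine of adult hermaphrodites transcribes, 5 were called lower and the median was -1.84. Their median on single arrays ran from -4.06 on CPF Cy5 replicate 1 to -0.74 on CPF Cy3 replicate 2. Of 15 major sperm protein genes, which are transcribed as sperm form from the last larval stage on, 9 were called lower with a median of -1.65, and the medians of single arrays ran from -3.04 on CPF Cy5 replicate 1 to -0.60 on CPF Cy3 replicate 3. These counts depended on the arrays and on the background. Of the sperm genes 0 were called when any array with CPF in Cy5 or CPF Cy3 replicate 3 was left out, and 3 without CPF Cy3 replicate 2. Of the yolk genes 0 were called without CPF Cy5 replicate 2 or 3 or CPF Cy3 replicate 3. When CPF Cy5 replicate 1 was left out 3 yolk genes were called, and when CPF Cy3 replicate 2 was left out 1 was. Neither list had a called gene without background correction. Of the 15 sperm genes 2 were above background in no sample. How far the probes of these genes also bound transcripts of related genes was not tested, so the called genes may not be separate observations. No counts are given without both CPF Cy3 replicates 2 and 3, since that fit had a lone array in one dye orientation.

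These stage markers and bli-2 were called lower in the same comparison, and the part of worm stage in the fall of bli-2 was not tested. On CPF Cy5 replicate 1, where the medians of both lists were lowest, bli-1 (-1.29) and bli-2 (-1.44) also had their lowest ratios, but bli-6 (-1.39) did not. On CPF Cy3 replicate 1 the medians were -1.98 for yolk and -2.48 for sperm genes. There bli-6 had its lowest ratio (-1.92), beside -1.24 for bli-1 and -0.64 for bli-2. On CPF Cy3 replicate 3 the medians were -0.79 for yolk and -0.60 for sperm genes. There bli-2 had its next lowest ratio (-1.42), beside -1.03 for bli-1 and -0.56 for bli-6. The order over the arrays was not tested. The medians of general markers of intestine (-0.06), body wall muscle (0.06), neurons (0.09) and germline (-0.10) lay near 0, with 0 of 5 genes called in each. The value of the intestinal protease gene cpr-1 was -0.49 when CPF Cy3 replicates 2 and 3 were left out, against 0.06 on all arrays.

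The dye term of the fit did not pass for any member, with a smallest adjusted p of 0.857. Values under other ways of processing are drawn for the strut collagens and dpy-13. In 23 alternatives bli-2 was below 0 in all 23 and called in 12, bli-6 was below 0 in all 23 and called in 9, and bli-1 was below 0 in all 23 and called in 2. The fitted value of dpy-13 was below 0 in 21 of 23, and it was called only in fits with a lone array in one dye orientation. The genes sqt-1 and sqt-3 were above 0 in all 23 and called in none. Several of the alternatives change only the error or the test and keep the fitted value, so these counts of signs are not separate trials. The counts of calls take in fits with a lone array in one dye orientation, where a call is no firm result.

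**Figure D4:**
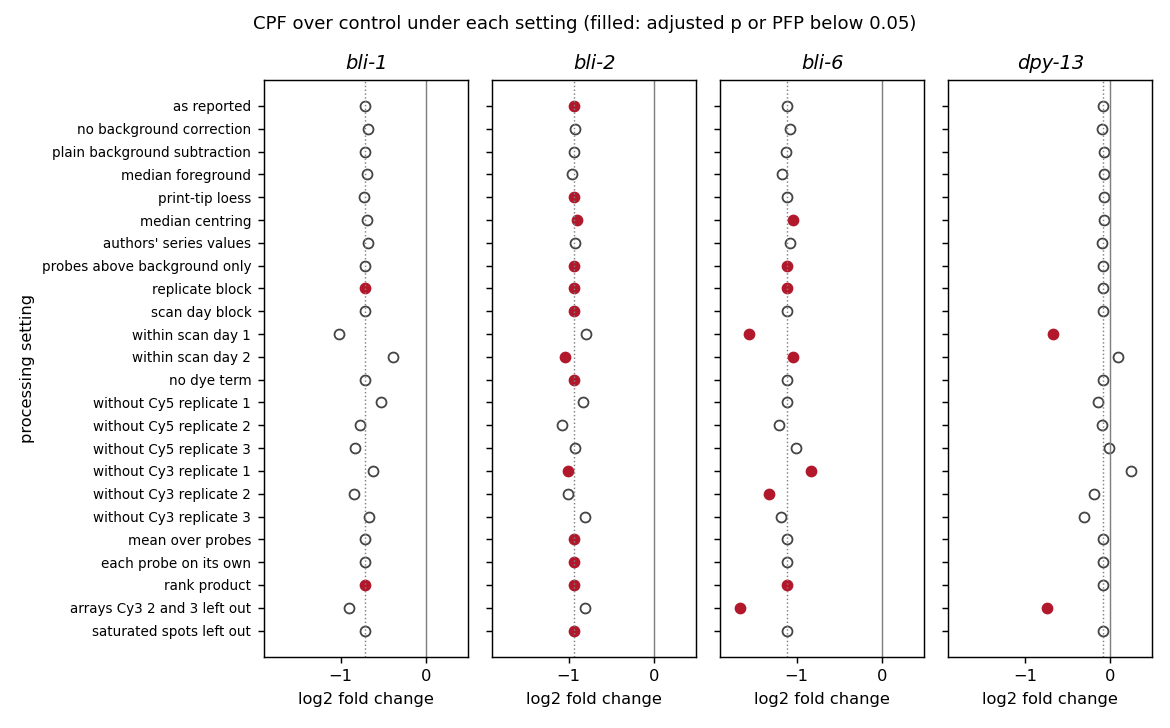
Log2 fold change, CPF over control (horizontal axes), of bli-1, bli-2, bli-6 and dpy-13 under each processing alternative (vertical axis), with the reported value as a dotted line. Filled points passed the threshold (adjusted p, or percentage of false positives for the rank product, below 0.05). The points of bli-1, bli-2 and bli-6 all lie left of 0, while those of dpy-13 lie on both sides.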

How the data were processed

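The deposited scanner files held raw intensity per spot and dye (mean and median of the foreground and of the surrounding background), before any normalization. Saturation was deposited as the percent of pixels per spot. Normalized columns written by the scanner software were left out. A table of log2 ratios was deposited by the authors as well. These equalled CPF over control computed with loess from uncorrected mean intensities, with no difference above 0.0148, so their scale, centring and direction were known. The column medians were -0.00107, -0.000791 and -0.000933 (CPF Cy5 replicates 1 to 3) and -0.00213, 0.0021 and 0.00608 (CPF Cy3 replicates 1 to 3).

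Of 23232 spots 742 were control or empty. The 22490 probes were named through a gene table of WBcel235, used for names only (21382 by locus tag, 31 by gene number), and 1077 kept the file's name. A gene was represented by its brightest probe. Background was corrected with normexp (offset 50) on the mean foreground and median background. Ratios were normalized with loess (control spots at weight 0) and Aquantile, and fitted with limma 3.58.1 in R 4.3.3 with treatment and dye terms (lmFit and eBayes, two-sided). The rank product of the study's methods was reimplemented with 100 permutations, and genes with a percentage of false positives below 0.05 were called. A spot was above background where its mean exceeded the mean background by 2 SD, and counted as saturated from 25% saturated pixels on. The number of arrays limits the precision. The fit was tested on simulated data.

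Named genes were all members, the called genes and the gene with the smallest p of each list, and the 3 closest genes of the 2 members with the largest change among those above background throughout. For markers of stage and tissue, counts are given in place of names. The genes rol-8, dpy-4, let-653 and cpr-1 were given values after these were seen. Members and lists were chosen with earlier results of these data known. Alternatives covered background correction, normalization, foreground column, filter, probe choice, dye term, scan day, replicate block, test and each array left out. After the data were seen, leaving out CPF Cy3 replicates 2 and 3 together and leaving out saturated spots were added.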

Additional observations from a re-analysis of the deposited data

Results flagged for a closer look

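In a Dixon test of the highest and the lowest of the 6 arrays of each gene against the 95% critical value, run for 12 genes, the members with rol-1 and col-19, the ratio of CPF Cy3 replicate 2 stood apart for 2 genes. For sqt-1 it was -0.29 where the other arrays lay between 0.21 and 0.32 (Dixon ratio 0.816). For col-19 it was -0.20 where the other arrays lay between -2.12 and -1.59 (Dixon ratio 0.726). Chance flags about 5% of such sets. Neither was weighed further, and CPF Cy3 replicate 2 was also one of the 2 arrays that correlated least with the others.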

How the results depend on the processing

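Of all genes 259 were called, 64 higher and 195 lower. The count was 19 without background correction (13 higher and 6 lower) and with the authors' values, 3 with plain subtraction (3 higher and 0 lower), 162 with the median foreground, 738 within scan day 1, 106 within scan day 2, 545 by the rank product and 706 without CPF Cy3 replicates 2 and 3. It ranged from 8 (without CPF Cy5 replicate 2) to 313 (without CPF Cy3 replicate 1) when 1 array was left out, and was 58 or 93 with CPF Cy5 replicate 1 or 3 left out and 29 with CPF Cy3 replicate 3 left out. Of the members 1 was called. The count was 0 without background correction, with plain subtraction, the median foreground or the authors' values. It was 2 with median centring (beside 385 of all genes) and with probes above background only (beside 243 of 7079 genes), and 3 by the rank product. It ranged from 0 to 2 when 1 array was left out. The cause was not tested. With the replicate block it was 3 members and 377 genes. Arrays with the same number correlated in their deviations from the group means at 0.16, 0.07 and 0.02, so the numbers were not taken to pair the arrays.

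Uncalled values changed sign. That of sqt-2 was -0.077 within scan day 1 and -0.13 without CPF Cy3 replicates 2 and 3. That of rol-6 was 0.080 with the median foreground and 0.094 with print-tip loess, and ranged from -0.085 to 0.055 with 1 array left out. Without saturated spots it was 0.064, where only arrays with CPF in Cy3 were left and the dye effect was not removed. That of dpy-5 was -0.23 within scan day 1, -0.26 without CPF Cy3 replicates 2 and 3 and -0.025 without saturated spots, and ranged from -0.025 to 0.24 with 1 array left out. That of dpy-13 was 0.10 within scan day 2 and ranged from -0.31 to 0.25 with 1 array left out. The 3 strut collagens kept their direction in all 23 alternatives, but several of these change only the error or the test and keep the fitted value. For bli-1 and bli-2 leaving out arrays could not turn the sign either, since their ratio was below 0 on every array. Calls depended on the background correction, and signal near background limits what can be said of dpy-17.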
